A study of Schistosoma mansoni with 6 samples.

Results

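The genes described here are the cell cycle genes of the blood fluke Schistosoma mansoni that are not kinases, motor proteins named as kinesins or dyneins, ubiquitin and proteasome genes, replication licensing factors, histones, zinc finger proteins, GTPases or the repair genes rad50 and rad54. They were chosen by annotation and by a list of identifiers. Members had an exon length above 0, a Gene Ontology (GO) biological process term containing "cell cycle", and a product name outside those classes. A further 5 cell cycle genes were left out by identifier. Of 191 such cell cycle genes among 10770 genes with exons, 152 were members by this rule. The other 39 were left out, 34 by product name and 5 by identifier. The rule names no measured value, but it was set with earlier results of these data known. All 5 genes left out by identifier were called lower after irradiation, with log2 fold changes of -4.42 to -1.13. The members are a mixed set, from cyclins, septins and cohesin proteins to splicing factors and mitochondrial peptidases that carry a cell cycle term, and 49 of them are named only as hypothetical proteins.

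RNA was sequenced from the posterior somatic tissue of adult male worms of the NMRI strain, perfused from mice 43 days after infection. Irradiated worms received 200 Gy of gamma rays from a cobalt source, and control worms were mock irradiated (0 Gy). Both groups were then cultured in Basch medium 169 for 48 hours. Males were separated from females with an anaesthetic, the head and testes were cut off, and total RNA was taken from pools of 14 to 18 worms. There were 3 control libraries (A, B and C) and 3 irradiated libraries (A, B and C), and no untreated worms outside these groups.

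A dividing cell copies its chromosomes, holds the copies together with cohesin, compacts them with condensin, separates them on a microtubule spindle and then splits. Cyclins and their kinases drive the order of these steps, the anaphase-promoting complex with its activator Cdc20 starts chromosome separation, and checkpoint proteins hold the cycle when DNA is damaged. Neoblasts, the stem cells of flatworms, are the cells of the body that divide, and ionising radiation is the usual means of removing them. The same GO terms also cover proteins that non-dividing cells use, such as septins, protein phosphatases and splicing factors.

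The libraries held 17577059 to 29641087 exon reads, and exon reads were 82.9% to 87.2% of a library's gene reads, lowest in control B. A gene without reads could have had up to 3, which is 0.101 to 0.171 CPM (counts scaled to library size) by library, counting error only. Summed CPM of 6 genes with testis or meiosis names was 389.8 to 401.8 in controls and 362.6 to 366.1 in irradiated libraries, without overlap. None of the 5 of these that were tested was called, and 1 of the 6 is a member, cut4. Summed CPM of 25 muscle genes was 22362 to 23295 in controls and 21118 to 22988 after irradiation. Both vitelline genes of the female had reads, with a summed CPM of 28.4 to 31.5 in controls and 31.5 to 31.6 after irradiation. Summed CPM of 49 tegument genes was 15896 to 17011 in controls and 17650 to 19029 after irradiation, also without overlap, and 3 of 45 tested were called higher and 0 lower. For 16 gut genes it was 24051 to 26272 in controls and 22949 to 23974 after irradiation, again without overlap, and 0 of 13 tested were called. For 38 neuron genes it was 1767 to 1841 and 1759 to 1785, with overlap, and of 32 tested 1 was called lower and 1 higher. The part of these tissues in the results was not tested.

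After irradiation 21 members were lower and 0 were higher, at an adjusted p under 0.05 in edgeR's quasi-likelihood test over all 8885 tested genes. Of the 152 members, 142 had enough reads to be tested, so the 21 were 14.8% of tested members. Over all tested genes, 2.49% were called lower and 0.619% higher. At an unadjusted edgeR p under 0.05, 48 members were lower and 2 were higher, against 1184 lower and 735 higher of all 8885 tested genes. DESeq2 also called 0 members higher. Of the 21, 13 were lower by at least 2-fold, 9.15% of tested members against 1.13% of all tested genes, and 8 of these were lower by at least 4-fold. Over all 8885 tested genes, 59 were called lower by at least 4-fold. The median log2 fold change of the 142 tested members was -0.06, against 0.00 over all tested genes, so most members lay close to 0. All 3 irradiated libraries were below all 3 controls in 49 tested members, against 13.3% of all tested genes, and above them in 9 members, against 12% of all tested genes. In bulk tissue, fewer cells of a type and less RNA per cell cannot be told apart.

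Members passed the read filter in different ways. Of the 142, 131 reached the filter's level of 0.429 CPM (10 reads in a library of median size) in all 6 libraries, and 13 of the 21 called members were among these, 5 of them lower by at least 2-fold. Smp_193330 and Smp_172610 reached it in all 3 controls and in no irradiated library. Such members had to differ, and counts over tested members are given as description.

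**Figure D1:**
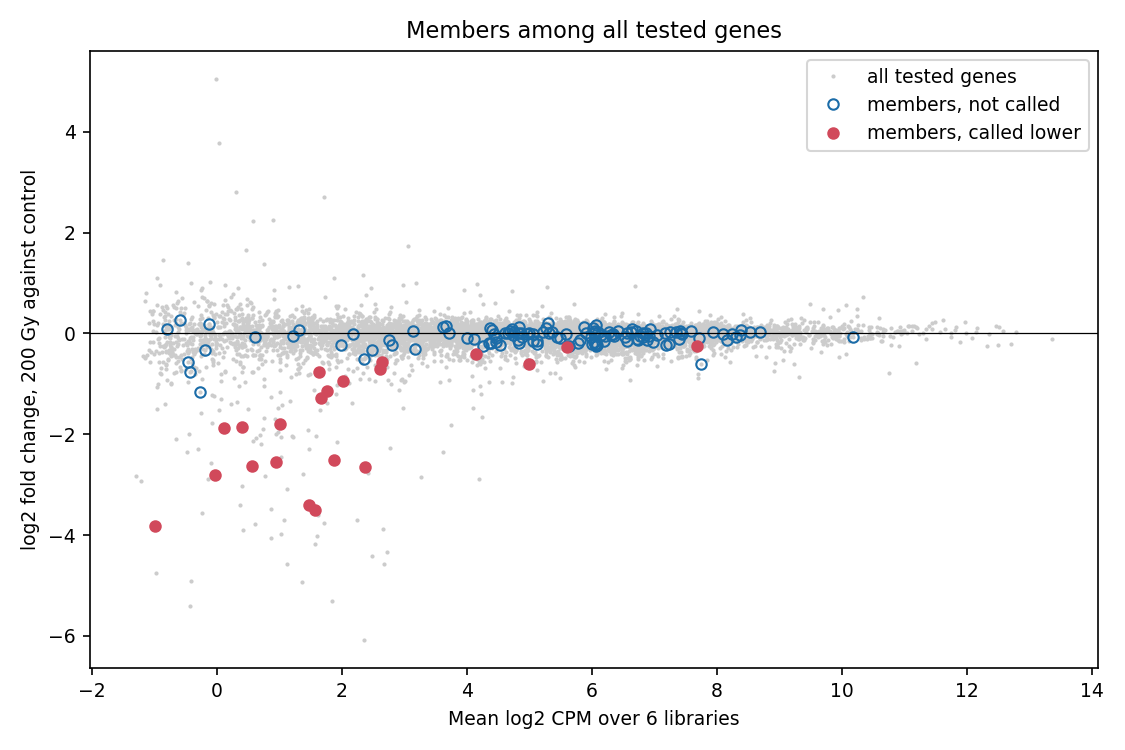
Log2 fold change after 200 Gy (vertical axis) against mean log2 CPM over 6 libraries (horizontal axis) for all 8885 tested genes (grey), the 121 tested members that were not called (open blue) and the 21 called lower (red). Members lower by at least 2-fold lie at low read levels, and most members lie near 0 at higher levels.

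Of the 13 members lower by at least 2-fold, 8 carry the GO term mitosis and 4 the component microtubule, and 8 are named only as hypothetical proteins. Among the 142 tested members, 53, 19 and 45 were of these kinds. Smp_119910, a hypothetical protein with the GO function microtubule motor activity, had a CPM of 5.18 in control A, 5.25 in B and 4.91 in C. After irradiation the CPM was 0.338 in A, 0.602 in B and 0.543 in C, the order in which libraries are given throughout. Every irradiated library was far below every control. Its log2 fold change was -3.40 ± 0.20 (SE, n = 3 against 3; edgeR adjusted p = 1.05e-05), a 10.5-fold lower level. Motor proteins with this term walk along spindle or cytoplasmic microtubules using ATP.

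Smp_193330, also a hypothetical protein with the motor activity term, was the lowest-read member that was called. Controls held 21, 15 and 19 reads, and irradiated libraries held 1, 2 and 1, so this difference rests on few reads. Its CPM was 0.783, 0.656 and 1.08 in controls and 0.0338, 0.0926 and 0.0418 after irradiation, the latter all under the 3-read limit. The log2 fold change was -3.82 ± 0.50 (edgeR adjusted p = 0.00221), and the ratio of control to irradiated reads, scaled by library size, was 15.4 (95% exact counting interval 5.67 to 58.4). That interval leaves out the spread between pools. Smp_193330 reached the read filter's level only in controls, so its separation was fixed by the filter and is given as description. Smp_193330 and Smp_119910 were the only 2 members with the GO term microtubule-based movement.

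Smp_169970 is named paramyosin in the deposited annotation, a muscle thick-filament protein, but its GO terms are mitosis and the centromeric region of chromosomes. It had 6.04, 5.25 and 5.02 CPM in controls and 0.439, 0.417 and 0.585 CPM after irradiation, with no overlap. The log2 fold change was -3.50 ± 0.19 (edgeR adjusted p = 6.59e-06), the lowest adjusted p among members. The 25 genes with muscle names, of which it is 1, had 2 called lower and 0 higher among 23 tested. Which of the 2 annotations describes the gene was not tested.

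Smp_046280 and Smp_149490 are hypothetical proteins that share the terms actin binding, cytoskeleton and mitosis. Smp_046280 was the most abundant of the 13 by CPM, with 8.99, 8.97 and 9.02 CPM in controls and 1.08, 1.67 and 1.63 CPM in irradiated libraries. The controls were nearly equal, and the log2 fold change was -2.64 ± 0.15 (edgeR adjusted p = 1.05e-05). Smp_149490 had 1.31, 1.92 and 1.71 CPM in controls and 0.439, 0.509 and 0.376 CPM after irradiation, a log2 fold change of -1.88 ± 0.26 (edgeR adjusted p = 0.00363).

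Smp_176010 carries the terms centrosome, spindle and microtubule binding, the poles and fibres that pull chromosomes apart. Its CPM was 3.02, 3.63 and 3.08 in controls and 0.406, 0.648 and 0.627 after irradiation, a log2 fold change of -2.55 ± 0.21 (edgeR adjusted p = 0.000127). Smp_140240, with microtubule, DNA binding and mitosis terms, fell less. Controls had 4.29, 4.51 and 4.62 CPM and irradiated libraries 1.62, 2.13 and 1.84 CPM, a log2 fold change of -1.27 ± 0.14 (edgeR adjusted p = 0.000986). The groups did not overlap in either gene.

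Smp_172610 and Smp_072560 have only cell division and cell cycle as process terms, and Smp_072560 is also annotated as a nuclear GTP-binding protein. Smp_072560 had 5.93, 5.99 and 7.08 CPM in controls and 0.98, 1.11 and 1.25 CPM after irradiation, a log2 fold change of -2.50 ± 0.15 (edgeR adjusted p = 1.55e-05). Smp_172610 had 1.68, 1.57 and 1.60 CPM in controls and 0.169, 0.231 and 0.293 CPM after irradiation, a log2 fold change of -2.81 ± 0.27 (edgeR adjusted p = 0.000307). The groups of Smp_072560 were separated by more than the whole spread within either. Smp_172610 reached the read filter's level only in controls, so its separation was fixed by the filter and is given as description.

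Among members with a name, the cell division control protein 45-related gene Smp_047610 fell most after paramyosin. In yeast and animals, Cdc45 joins the MCM ring to form the helicase that unwinds DNA at replication forks. Its CPM was 2.54, 2.23 and 2.74 in controls and 0.439, 0.417 and 0.334 in irradiated libraries, a log2 fold change of -2.63 ± 0.22 (edgeR adjusted p = 0.000116). DNA ligase I and Ris2 changed far less. DNA ligase I, Smp_019840, which joins newly made DNA fragments, had 82.4, 86.3 and 80.2 CPM in controls and 81.2, 80.6 and 80.0 CPM after irradiation (log2 fold change -0.04 ± 0.05, edgeR adjusted p = 0.632). Ris2, Smp_167540, had 6.08, 6.04 and 5.65 CPM in controls and 4.43, 3.56 and 4.56 CPM after irradiation, and missed the threshold (log2 fold change -0.50 ± 0.12, edgeR adjusted p = 0.0642). Of 10 tested members with the term DNA replication, 2 were called lower (20%), with a median log2 fold change of -0.23. The share was 14.8% over all tested members and 2.49% over all tested genes.

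The nibrin-related gene and brca1 were both lower, and both act in repair of DNA double-strand breaks in other animals. Nibrin is the partner of Mre11 and Rad50 that brings checkpoint kinases to a break. Smp_128870, the nibrin-related gene, had 2.09, 2.23 and 1.60 CPM in controls and 0.406, 0.694 and 0.585 CPM after irradiation (log2 fold change -1.85 ± 0.25, edgeR adjusted p = 0.00313). Smp_132510, brca1, a tumour suppressor of homologous recombination in mammals, had 3.02, 2.84 and 3.42 CPM in controls and 0.947, 1.02 and 0.669 CPM after irradiation (log2 fold change -1.80 ± 0.19, edgeR adjusted p = 0.000722). No irradiated library reached the lowest control in either gene.

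A further pair with DNA repair terms are neighbouring genes in the RefSeq annotation, both hypothetical. Smp_193360 had 5.33, 5.77 and 4.57 CPM in controls and 2.23, 2.82 and 3.26 CPM after irradiation (log2 fold change -0.93 ± 0.16, edgeR adjusted p = 0.0155). Its call was lost without control B (adjusted p = 0.0783) and without irradiated A (0.0595). Smp_016240 beside it, named after its values were seen, had 0.820, 1.01 and 1.43 CPM in controls and 0.439, 0.463 and 0.502 CPM after irradiation. The groups did not overlap, but its log2 fold change of -1.16 ± 0.29 missed the threshold (edgeR adjusted p = 0.0671), on 105 reads over all libraries. Of 11 tested members with the term response to DNA damage, 4 were called lower (36.4%, against 14.8% of tested members and 2.49% of all tested genes). DNA ligase IV, Smp_148660, which seals breaks in end joining, gave 0.10 ± 0.06 (edgeR adjusted p = 0.37).

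**Figure D2:**
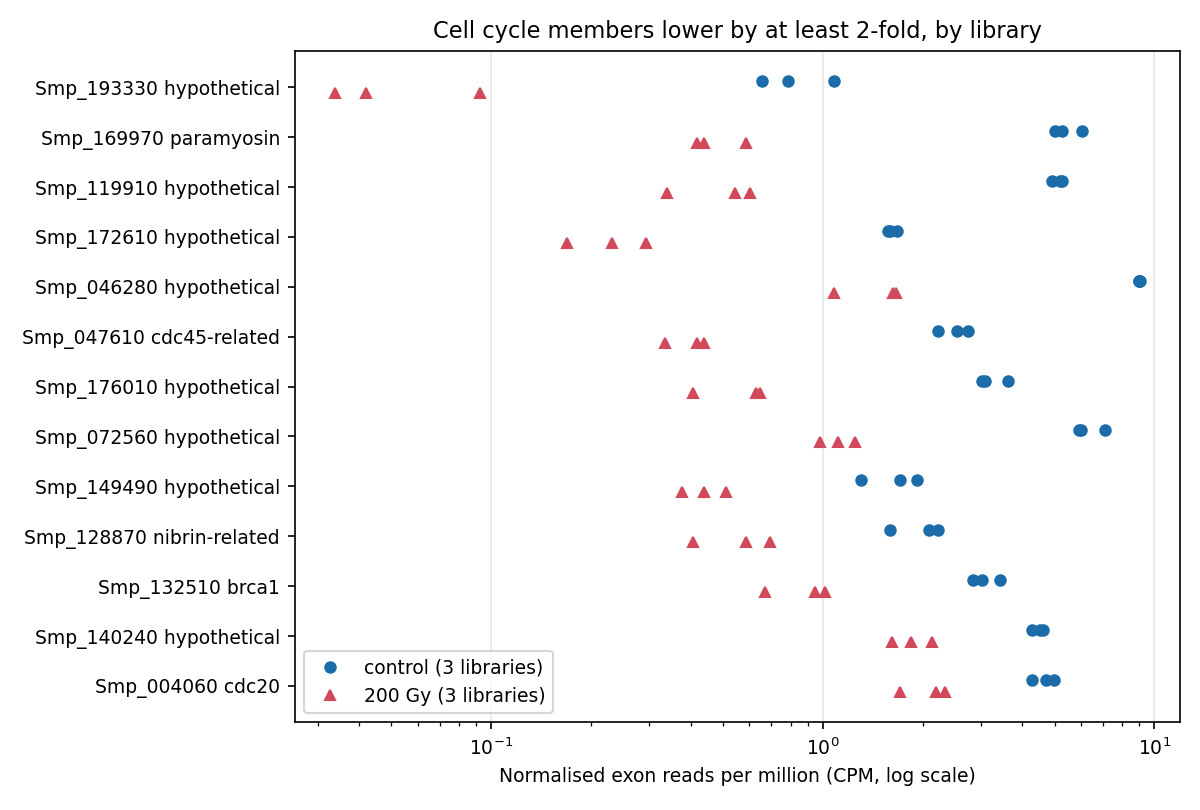
Normalised CPM of exon reads (log axis) in each library for the 13 members lower by at least 2-fold, with 3 control libraries as blue circles and 3 irradiated libraries as red triangles. The groups are separate in every gene, which the read filter fixed for Smp_193330 and Smp_172610. Smp_193330 is at the lowest level in both groups.

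Cdc20, the activator that turns the anaphase-promoting complex on at the end of metaphase, was lower, and its relative was not called. Smp_004060, named cdc20 (fizzy), had 4.70, 4.29 and 4.97 CPM in controls and 2.20, 1.71 and 2.34 CPM after irradiation (log2 fold change -1.14 ± 0.15, edgeR adjusted p = 0.00253). Smp_132020, the fizzy-related gene, whose relatives act with the same complex later in the cycle and in resting cells, had 108, 111 and 120 CPM in controls and 113, 110 and 117 CPM after irradiation. Its groups overlapped and its log2 fold change was 0.01 ± 0.05 (edgeR adjusted p = 0.952). Per length, mean control RPKM was 2.50 for Smp_004060 and 49.0 for Smp_132020. The difference in fold change between these genes was not tested.

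Among members named for cohesin and SMC proteins, 2 of 3 pds5 genes and 1 of 4 SMC genes were called lower, each by under 2-fold. The share called lower was 14.8% of tested members and 2.49% of all tested genes. The 3 members named pds5, a cohesin-associated protein that regulates how sister chromatids are held, follow each other in the RefSeq annotation. Smp_175490 had 7.12, 7.87 and 7.71 CPM in controls and 4.73, 4.63 and 4.43 CPM after irradiation (log2 fold change -0.71 ± 0.10, edgeR adjusted p = 0.00385). It was the only member under 2-fold whose call held with any library left out. Smp_137790 had 18.2, 21.9 and 20.6 CPM in controls and 15.4, 15.0 and 15.1 CPM after irradiation (log2 fold change -0.41 ± 0.08, edgeR adjusted p = 0.0322). That call was lost without control B or C or irradiated A or C, with an edgeR adjusted p of up to 0.134. Smp_137780 between them had 6.19, 6.34 and 5.82 CPM in controls and 5.00, 5.05 and 4.68 CPM after irradiation, apart in every library but past no threshold (log2 fold change -0.32 ± 0.10, edgeR adjusted p = 0.119).

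All 4 members named for SMC proteins, the ATPase arms of cohesin and condensin, had every irradiated library below every control, and 1 was called. The same order held in 49 of 142 tested members and in 13.3% of all tested genes. Smp_173700, named structural maintenance of chromosome 3, had 52.7, 55.1 and 50.5 CPM in controls and 42.8, 46.2 and 42.1 CPM after irradiation (log2 fold change -0.27 ± 0.06, edgeR adjusted p = 0.0385). Leaving out control A, B or C or irradiated A or C ended this call, with an edgeR adjusted p of up to 0.169. Smp_136970, which carries the same leading name, had 130, 132 and 138 CPM in controls and 119, 118 and 116 CPM after irradiation (log2 fold change -0.18 ± 0.04, edgeR adjusted p = 0.0643). Smp_171710, named smc2, gave -0.18 ± 0.05 and Smp_145260, named smc3, -0.16 ± 0.07 (edgeR adjusted p of 0.0926 and 0.221). Smp_166820, a hypothetical protein with chromosome condensation and segregation terms, was called at 7.53, 6.56 and 8.16 CPM in controls against 5.00, 5.37 and 4.64 CPM after irradiation (log2 fold change -0.56 ± 0.12, edgeR adjusted p = 0.0372). Its call was lost without control A or C or irradiated A or C (up to 0.145).

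The cut4 gene, Smp_151380, named as a meiotic checkpoint regulator and a subunit of the anaphase-promoting complex in fission yeast, had 51.7, 60.3 and 49.1 CPM in controls and 40.4, 49.5 and 46.0 CPM after irradiation. Its groups overlapped and it was not called (log2 fold change -0.25 ± 0.09, edgeR adjusted p = 0.162). The regulator of chromosome condensation Smp_076530, whose relatives load the GTPase Ran at chromatin, gave -0.11 ± 0.05 (edgeR adjusted p = 0.203). Timeless, Smp_163340, a fork protection protein in other animals, gave -0.18 ± 0.08 (edgeR adjusted p = 0.24).

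Chromatin and phosphatase genes held the remaining calls, and each was lost when some single libraries were left out. Smp_196120, named for TRRAP, a scaffold of histone acetyltransferase complexes, had 32.9, 42.8 and 39.7 CPM in controls and 23.7, 30.5 and 22.2 CPM after irradiation (log2 fold change -0.60 ± 0.13, edgeR adjusted p = 0.0431). Smp_014400, enhancer of polycomb, a subunit of the NuA4 acetyltransferase complex in yeast, had 209, 241 and 223 CPM in controls and 191, 189 and 184 CPM after irradiation (log2 fold change -0.25 ± 0.06, edgeR adjusted p = 0.0454). Smp_151410, protein phosphatase-7, had 3.51, 3.89 and 4.22 CPM in controls and 2.10, 2.78 and 2.01 CPM after irradiation (log2 fold change -0.76 ± 0.16, edgeR adjusted p = 0.0418). The groups were separate in all 3 genes. All 3 calls were lost without control B or C and without irradiated A or C, with an edgeR adjusted p of up to 0.18, 0.181 and 0.168 in that order. The other protein phosphatase-7 gene, Smp_140770, was at 11.5, 12.2 and 12.2 CPM in controls and 13.2, 12.8 and 13.5 CPM after irradiation (log2 fold change 0.14 ± 0.07, edgeR adjusted p = 0.305).

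**Figure D3:**
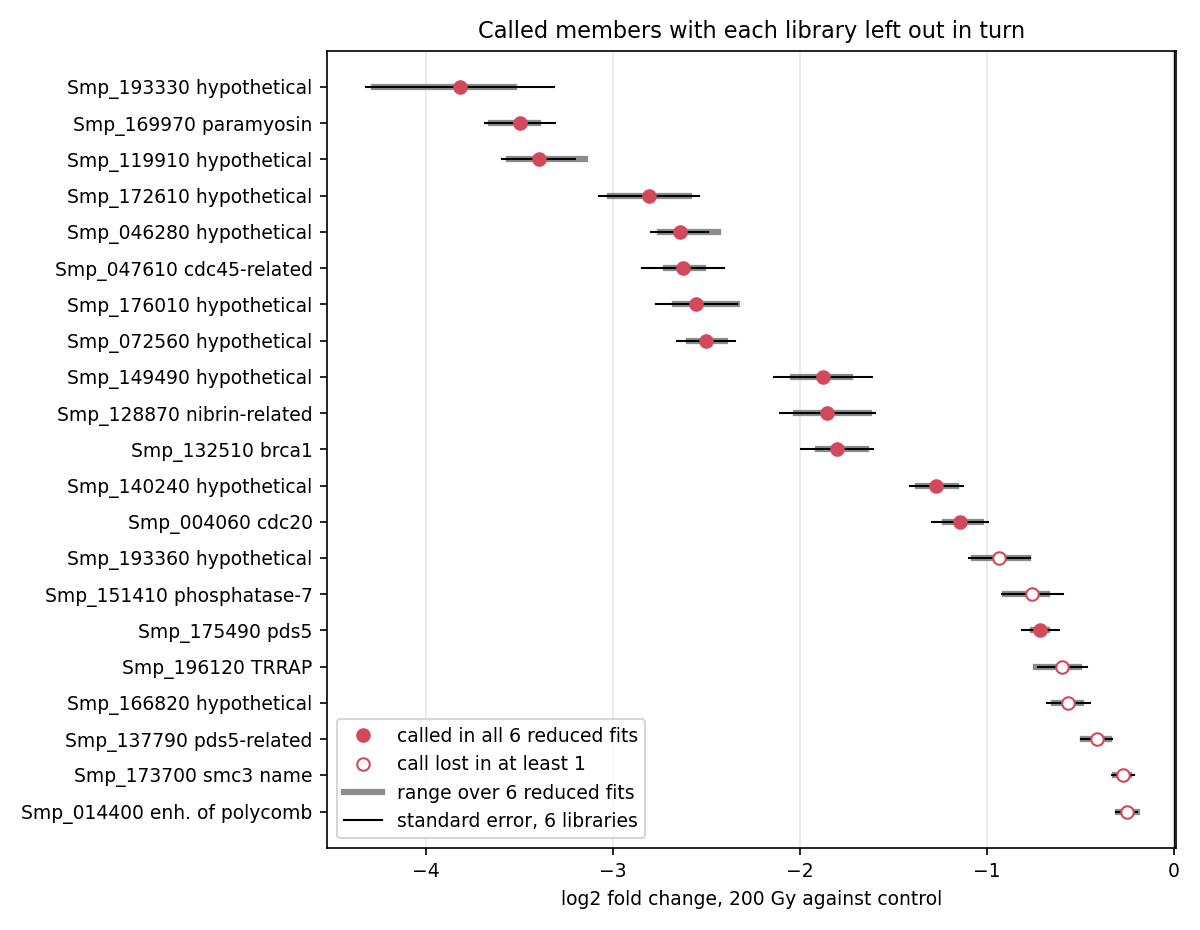
Log2 fold change after 200 Gy for the 21 called members (points), with the standard error over 6 libraries (thin black) and the range when each library was left out in turn (grey). Filled points mark the 14 members called in all 6 reduced fits, which are the 13 lower by at least 2-fold and Smp_175490.

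With each library left out in turn, all 13 members lower by at least 2-fold were called in all 6 reduced fits, with an edgeR adjusted p of at most 0.0263. Of the 8 lower by under 2-fold, 1 was. The number of members called lower ran from 14 to 30, highest without irradiated B. Over all tested genes the number called lower ran from 119, without control C, to 723, without irradiated B.

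None of the 9 cyclins tested among the members was called. Over all tested genes, 2.49% were called lower and 0.619% higher, so the absence of calls among 9 genes says little about cyclins. Cyclin B, Smp_082490, and cyclin B3, Smp_047620, were left out by identifier, and both were called lower. Their log2 fold changes were -4.42 ± 0.16 and -2.79 ± 0.17 (edgeR adjusted p of 3.85e-07 and 1.39e-05). Cyclins bind and switch on cyclin-dependent kinases, and the 9 tested here include types C, D, G, K and L. The log2 fold changes of these 9 ran from -0.22 ± 0.16 for cyclin D, Smp_153660, to 0.12 ± 0.08 for cyclin K, Smp_130980 (edgeR adjusted p of 0.466 and 0.415). Cyclin D had 7.12, 9.01 and 5.94 CPM in controls and 6.15, 7.45 and 5.52 CPM after irradiation, with overlap. Of the reads of cyclin K, 79.4% mapped uniquely, so part of its level could come from another copy. Cyclin G, Smp_129360, gave -0.06 ± 0.05 and the cyclin Smp_152760 gave 0.05 ± 0.06 (edgeR adjusted p of 0.5 and 0.646). A cdc25 gene, Smp_046810, the phosphatase that activates mitotic cyclin-dependent kinase, had 78.3, 85.3 and 74.4 CPM in controls and 71.4, 83.1 and 78.9 CPM after irradiation (log2 fold change -0.03 ± 0.07, edgeR adjusted p = 0.83). The E2F/DP family gene Smp_093310, of the factors that turn on S-phase genes, gave 0.01 ± 0.06 (edgeR adjusted p = 0.921).

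Cytoskeletal members at high levels were also not called. The 4 septins, GTP-binding proteins that form rings and filaments at the cell cortex, ran from -0.06 ± 0.05 for Smp_060070 to 0.06 ± 0.05 for Smp_029890, the most abundant of them at a mean control RPKM of 158. The microtubule end-binding gene Smp_054540 had 419, 404 and 405 CPM in controls and 409, 412 and 428 CPM after irradiation (log2 fold change 0.02 ± 0.04, edgeR adjusted p = 0.782). The katanin P80 subunit Smp_173580, of an enzyme that severs microtubules, gave -0.01 ± 0.07 (edgeR adjusted p = 0.941). Clasp2, Smp_165350, had 152, 164 and 152 CPM in controls and 126, 145 and 132 CPM after irradiation, and xmap215, Smp_054790, had 155, 164 and 165 CPM in controls and 133, 148 and 139 CPM after irradiation. Both bind growing microtubule ends, both were below every control after irradiation, and both missed the threshold (log2 fold changes of -0.22 ± 0.06 and -0.20 ± 0.05, edgeR adjusted p of 0.0855 and 0.0716).

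The terms for cell cycle arrest and negative regulation held no call. Of 6 tested members with the term cell cycle arrest and 7 with negative regulation of the cell cycle, 0 were called lower or higher by edgeR, and DESeq2 called 0 members higher. Over all tested genes, 2.49% were called lower and 0.619% higher, so 0 calls among so few genes says little about these terms. Sestrin, Smp_147400, a stress protein under p53 control in mammals, had 312, 331 and 333 CPM in controls and 297, 323 and 305 CPM after irradiation (log2 fold change -0.08 ± 0.05, edgeR adjusted p = 0.392). The gene named for a partner of growth arrest and DNA damage-inducible proteins, Smp_074260, had 59.1, 50.2 and 58.6 CPM in controls and 61.5, 59.9 and 61.4 CPM after irradiation (log2 fold change 0.12 ± 0.07, edgeR adjusted p = 0.313). Smp_138620, a hypothetical protein with cell cycle arrest and striated muscle contraction terms, had 212, 318 and 247 CPM in controls and 152, 216 and 144 CPM after irradiation, with overlap (log2 fold change -0.60 ± 0.17, edgeR adjusted p = 0.0916).

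Among uncalled members at a mean log2 CPM of 1 or more, the highest were Smp_093450, Smp_131990 and Smp_140770. Smp_093450, a carcinoma-associated antigen with splicing terms, had 40.7, 35.6 and 32.7 CPM in controls and 41.9, 41.7 and 42.2 CPM after irradiation (log2 fold change 0.20 ± 0.08, edgeR adjusted p = 0.171). Smp_131990, growth arrest-specific 2-related, named for proteins that link actin and microtubules, had 65.1, 62.0 and 61.3 CPM in controls and 73.1, 71.9 and 66.8 CPM after irradiation (log2 fold change 0.17 ± 0.05, edgeR adjusted p = 0.119). Every irradiated library was above every control in all 3 of these genes, and none passed the threshold. They were picked for high fold changes, so this order is given as description. It held in 9 of 142 tested members and in 12% of all tested genes.

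Other process terms held few calls or none. Of 13 tested members with the term transcription, 2 were called lower, TRRAP and enhancer of polycomb, and of 7 with dephosphorylation 1 was, protein phosphatase-7. These are 15.4% and 14.3%, near the 14.8% of all tested members, against 2.49% of all tested genes. Of 3 with phosphorylation, 0 were called by edgeR, with a median log2 fold change of -0.22 and the lowest at -0.76 ± 0.43, the MAPk gene Smp_119320 (edgeR adjusted p = 0.338). None of 8 tested members with the term mRNA processing, 8 with proteolysis and 5 with peptidoglycan biosynthesis was called by edgeR, with median log2 fold changes of -0.02, -0.03 and 0.02. The most abundant member was Smp_018240, the cell division control protein 48 ATPase that extracts proteins for degradation, at a mean RPKM of 314 in controls and 306 after irradiation (log2 fold change -0.06 ± 0.04, edgeR adjusted p = 0.434). The dolichyl-phosphate sugar transferase Smp_051360, of the glycosylation pathway, gave -0.01 ± 0.04, and the nuclear movement protein Smp_128650 gave 0.05 ± 0.05. Protein phosphatase type 1, Smp_004810, gave 0.04 ± 0.04 (edgeR adjusted p = 0.638). At low levels, Speedy, Smp_170320, an activator of cyclin-dependent kinases in frogs, gave 0.26 ± 0.31, and the F-box gene Smp_139250 gave 0.09 ± 0.29, on 82 and 70 reads over 6 libraries. Neither was called.

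**Figure D4:**
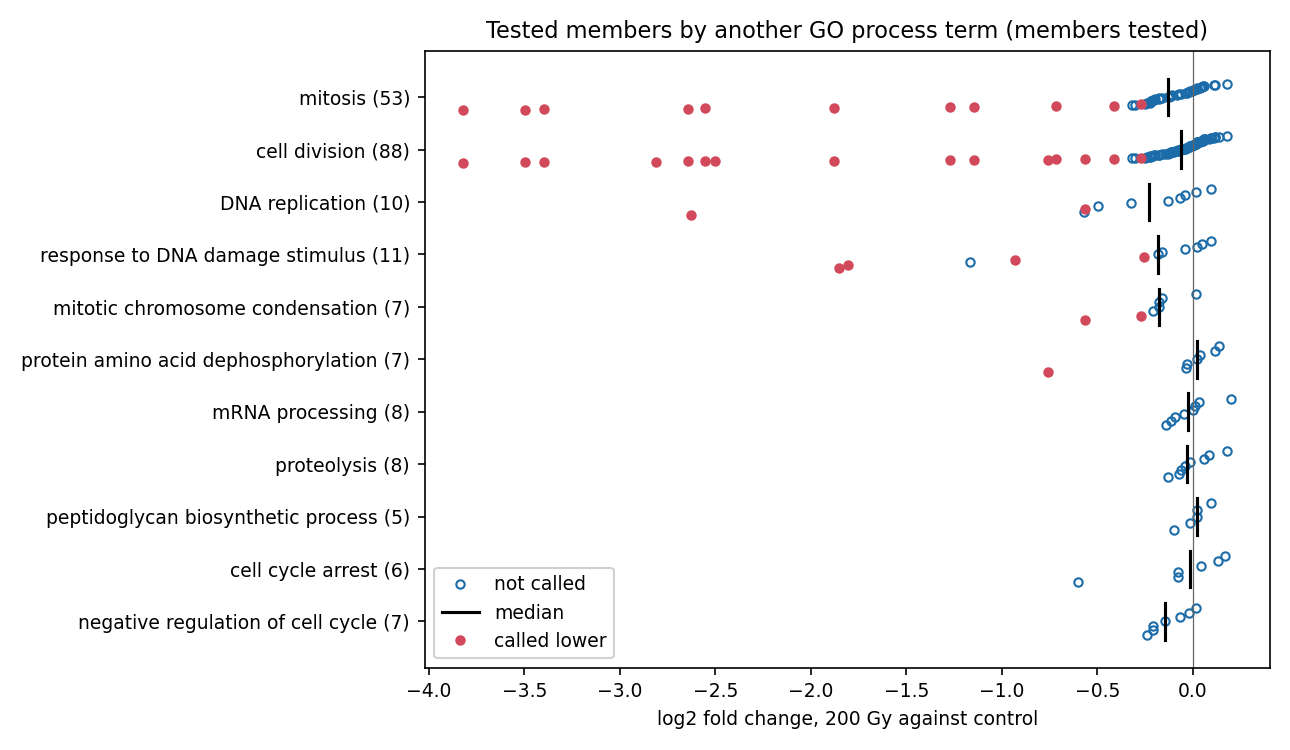
Log2 fold change after 200 Gy for tested members, by another GO process term they carry, with the number tested in brackets (red, called lower; open blue, not called; black bar, median). Among the terms drawn, calls lie in mitosis, cell division, replication, DNA damage, condensation and dephosphorylation, and a member can appear under several terms.

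By term, 11 of 53 tested members with mitosis were called lower (20.8%) and 15 of 88 with cell division (17%). For DNA repair it was 3 of 8 (37.5%) and for mitotic chromosome condensation 2 of 7 (28.6%). The share called lower was 14.8% over tested members and 2.49% over all tested genes. Of the 40 tested members with none of the terms mitosis, cell division, DNA replication, DNA repair or DNA damage, 1 was called lower. That is 2.5%, near the share over all tested genes. The terms overlap, so these counts are not independent. The 121 tested members that were not called ran from -1.16 to 0.26, with a median of -0.03, and 111 of them were within 0.25 of 0 on the log2 scale.

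The 13 members lower by at least 2-fold had low levels in control worms. Their mean control RPKM ran from 0.624 to 3.54, with a median of 1.96, while the median was 22.6 for tested members not called and 23.5 over all tested genes. Together they made up 49.6, 49.3 and 50.9 CPM in controls and 9.50, 11.3 and 11.1 CPM after irradiation. The summed CPM of the 121 uncalled members was 10798 to 10999 in controls and 10497 to 10711 after irradiation. These 13 held 55 to 604 reads over the 3 controls and 4 to 158 over the 3 irradiated libraries.

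Intron reads of the same genes were set beside exon reads. Of the 16 called members with enough intron reads to test, 14 had a log2 fold change below 0, and 1 was called, the cdc45-related gene at -2.01 (edgeR adjusted p = 0.00716). For the 9 of these that were lower by at least 2-fold in exons, the median log2 fold change was -2.55 in exons and -0.60 in introns, a difference that was not tested. Over all genes, 19 of 7539 tested on intron reads were called lower. The median intron log2 fold change was -0.004 over all of these genes and -0.03 over the 125 tested members with an intron test. Over the 12 members of the 13 with intron reads in controls, exon reads were 77.4%, 70.7% and 78.3% of gene reads in controls and 51.6%, 57.4% and 57.0% after irradiation, with no overlap. Because these genes were picked for low exon reads after irradiation, the share is given without a test. In Smp_169970 it was 78.4% in controls and 42.9% after irradiation, and in brca1, Smp_132510, 48.6% and 32.0%. Smp_149490 went the other way, 93.2% and 97.1%, on 9 intron reads in all. Over the 114 uncalled members with intron reads the exon share was 80.4% to 84.2% in controls and 83.4% to 84.6% after irradiation.

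**Figure D5:**
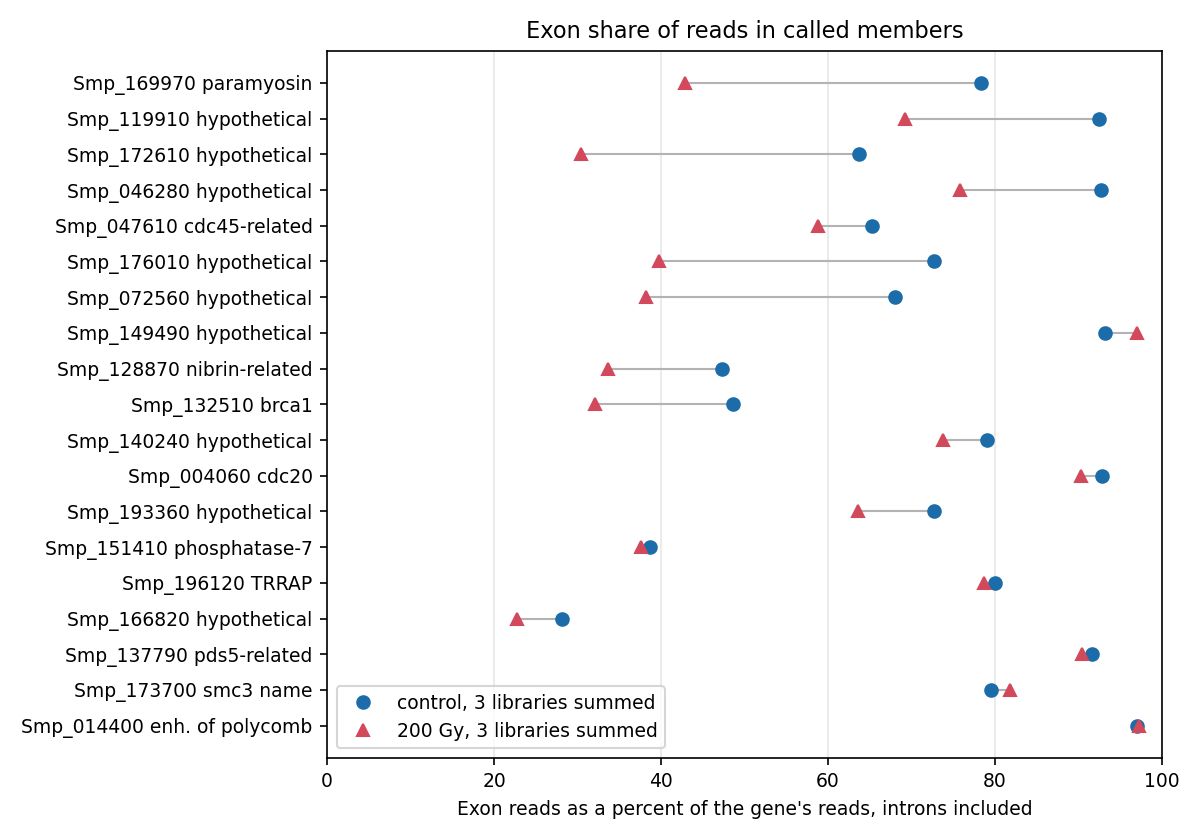
Exon reads as a percent of a gene's reads, introns included, for the 19 called members with intron reads in controls, with 3 libraries summed for controls (blue circles) and for 200 Gy (red triangles). The share was lower after irradiation in 11 of 12 genes with a 2-fold or larger fall and in 5 of the 7 lower by less. It was lower in 12 of 114 uncalled members. The called genes were picked for low exon reads after irradiation, so these counts were not tested.

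The called members were read almost entirely from unique positions, with at least 99.97% of exon reads mapping uniquely in each. In the authors' deposited table, the P-values of the 21 genes, unadjusted and computed on RPKM, ran from 4.3e-06 to 0.0232.

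The 39 cell cycle genes outside the rule, which include the MCM helicase, cyclin B and kinases, had 15 called lower and 0 higher by edgeR and by DESeq2, and 12 were lower by at least 2-fold. Their median log2 fold change was -0.20, and MCM2, Smp_079560, gave -4.57 ± 0.17 (edgeR adjusted p = 4.94e-07). The difference between the 2 sets was not tested.

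The 10 members that were not tested had 0 to 20 reads over 6 libraries. Smp_002470 had 0, the cyclin Smp_130970 had 2, Smp_191870 and the cdc25 gene Smp_152200 had 3 each, and the leishmanolysin-2 gene Smp_167120 had 6. The protein phosphatase-1 genes Smp_199620 and Smp_210990 had 8 and 20, Smp_143450 had 12, the invadolysin gene Smp_171320 had 18 and Smp_154390 had 19. No difference was detectable for them at this depth.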

How the data were processed

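Per the file headers, the deposited values are counts of exon, unique exon, gene (introns included) and exon-exon reads for each gene in each library, and RPKM. The deposited RPKM values equalled exon reads per exon length and total gene reads (relative difference at most 3.77e-08). The deposited P-value is the authors' own comparison. No aligner, counter, strand setting or build is named: each is not given in the sources used here. Reads of overlapping genes therefore cannot be told apart by strand. There were 30 other per-sample columns, not used here. Per the labels' protocols, libraries were made with a TruSeq kit and sequenced in 1 lane for 100 cycles. Separate infections are not stated for the pools, and p-values cover only the spread between these pools.

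Exon read counts of all 10770 genes with exons were filtered with filterByExpr, scaled with TMM and fitted by the quasi-likelihood method of edgeR 4.0.16 (R 4.3.3). Irradiated libraries were compared with controls, p-values were adjusted by Benjamini-Hochberg over 8885 genes, and an adjusted p under 0.05 was a call. CPM uses TMM library sizes. The standard error is the log2 fold change over the square root of F. DESeq2 1.42.0, limma 3.58.1 on log2(RPKM + 0.5) and log2(RPKM + 0.1), other scalings, filters, read classes and omissions of a library were alternatives. Intron reads (gene less exon reads) were added after seeing the data. The fit was tested on simulated counts.

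Members and lists were chosen with earlier results of these data known. By the rule for names, the text names each called member, up to 2 abundant members of a product-name group with fewer than 2 calls, the 3 highest and 3 lowest uncalled members at a mean log2 CPM of 1 or more, and each untested member. Other members were named after their values were seen. Of 152 members, 133 were found by locus tag in RefSeq (assembly ASM23792v2), used only for which genes are neighbours. Sequences were not used here.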

Additional observations from a re-analysis of the deposited data

How the results depend on the processing

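All 21 calls held in DESeq2, under RLE scaling, without the filter and on unique exon reads, and 20 held under upper-quartile scaling. On log2 RPKM limma kept 14 at either pseudocount, on gene reads 16 held and on exon-exon reads 15 of 18 tested. The 13 genes with a 2-fold or larger fall were among those kept by limma, upper-quartile scaling and gene reads, and 10 of them on exon-exon reads. A minimum of 5 CPM in 3 libraries left 9 of the 21 to test and 4 members lower, 9 of the other cell cycle genes lower, and 77 genes lower and 26 higher over all. Intron reads gave 1 member and 1 other cell cycle gene lower, 19 genes lower and 30 higher over all, and turned the direction of Smp_166820 (0.0529) and Smp_137790 (0.0069). The cause was not tested. Over all genes DESeq2 called 490 lower and 127 higher, and limma 140 (pseudocount 0.5) and 139 (0.1) lower. With libraries left out in turn, 14 to 30 members (highest without irradiated B) were lower and 0 to 1 higher (Smp_093450, without control A), 13 to 18 other cell cycle genes were lower and 0 higher, and 119 to 723 genes were lower and 16 to 129 higher. The libraries' letters are shared, and the labels do not say whether they pair libraries. Deviations of same-lettered libraries correlated at 0.09, 0.22 and -0.10, and those of differently lettered libraries at -0.26 to 0.21. With 3 libraries in each group, these values cannot decide whether the letters pair them. A fit with the letter as a replicate block called 36 members lower and 1 higher (Smp_131990), 1 other cell cycle gene higher, and 851 genes lower and 277 higher. Depth limits the lowest members: Smp_193330 rests on 4 irradiated reads.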
